A study of Mus musculus with 4 samples.

Results

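The glycolysis and hypoxia response genes described here are 37 genes of glucose uptake, glycolysis, lactate handling, pyruvate use and oxygen sensing, of 49585 genes counted in all. They are a list of symbols, each of which was looked up in the authors' deposited comparison table and joined by its Ensembl identifier to the counts, and all 37 were found. Messenger RNA was sequenced in 4 libraries of C2C12, an established myoblast line derived from C3H mice. Empty retroviral vector (pLXSN) had been introduced into the cells of 2 libraries, and a retrovirus that overexpresses C/EBPβ into those of the other 2. C/EBPβ is a bZIP transcription factor and the product of Cebpb. Both groups were selected in 1200 μg/ml G418 for 7 days, kept as pooled stable cells and not as a single clone, and grown for a further 48 h as proliferating myoblasts. The line was maintained in DMEM with 10% fetal bovine serum under 5% CO2, and the labels name no low-oxygen treatment. The labels do not say whether replicates came from separate transductions, and the p-values therefore reflect the spread among these libraries alone, which may be technical.

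Glycolysis splits glucose to pyruvate in the cytosol, and lactate dehydrogenase can then turn pyruvate to lactate, which leaves the cell through monocarboxylate transporters. Pyruvate dehydrogenase kinases block the entry of pyruvate into the mitochondrial citric acid cycle. When oxygen is scarce, prolyl hydroxylases no longer mark the HIF alpha subunits for destruction. The HIF complex then binds a short DNA core, the hypoxia response element, near many of these genes. Proliferating myoblasts use glycolysis heavily, and several steps have a muscle isozyme that is best known from differentiated fibres.

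The calls with C/EBPβ fell on regulators of glycolysis, lactate carriers, pyruvate dehydrogenase kinases and hypoxia targets. They also fell on the enzyme genes Hk1, Pfkl, Pfkp, Aldoc and Pgam1, on Hif1a and on Egln3, but not on the most abundant glycolytic enzymes. Pfkfb3, which makes the activator of phosphofructokinase, rose 2.65-fold, the lactate exporter gene Slc16a3 rose 2.22-fold, and the pyruvate dehydrogenase kinase gene Pdk1 rose 1.87-fold. The lactate carrier gene Slc16a1 fell to 0.566 of its control level. The hypoxia-inducible genes Car9, Bnip3 and Ddit4 rose 4.54-, 2.0- and 1.72-fold. Ndrg1 and Ankrd37, listed with them, did not pass (log2 fold changes -0.21 and 0.31). Egln3, an oxygen-sensing hydroxylase gene that is itself hypoxia-inducible, fell to 0.656. The 8 most abundant of the 37 in CPM, Pkm, Eno1, Aldoa, Ldha, Eno3, Tpi1, Gpi1 and Pgk1, had log2 fold changes between -0.11 and 0.13 and did not pass.

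Of the 37 genes 36 had enough counts to be tested, all but Epas1. Every adjusted p below comes from edgeR's quasi-likelihood test, with Benjamini-Hochberg adjustment across the tested genes, unless another tool is named. At a threshold of 0.05, 12 rose, 4 fell and 20 did not pass. Over all 15078 tested genes 24.9% passed, 14.1% higher and 10.8% lower, beside 44.4%, 33.3% and 11.1% of the 36. The median log2 fold change, C/EBPβ over empty vector, was 0.02 over the 36 and 0.00 over all tested genes. Of the 12 rises 8 passed also with each library left out in turn (Pfkfb3, Pfkfb4, Slc16a3, Pdk1, Pdk2, Bnip3, Ddit4 and Car9), and of the 4 falls 1 did (Slc16a1). The other 7 calls, for Pfkl, Aldoc, Pgam1, Hif1a, Hk1, Pfkp and Egln3, were lost without at least 1 library, as given with each.

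**Figure D1:**
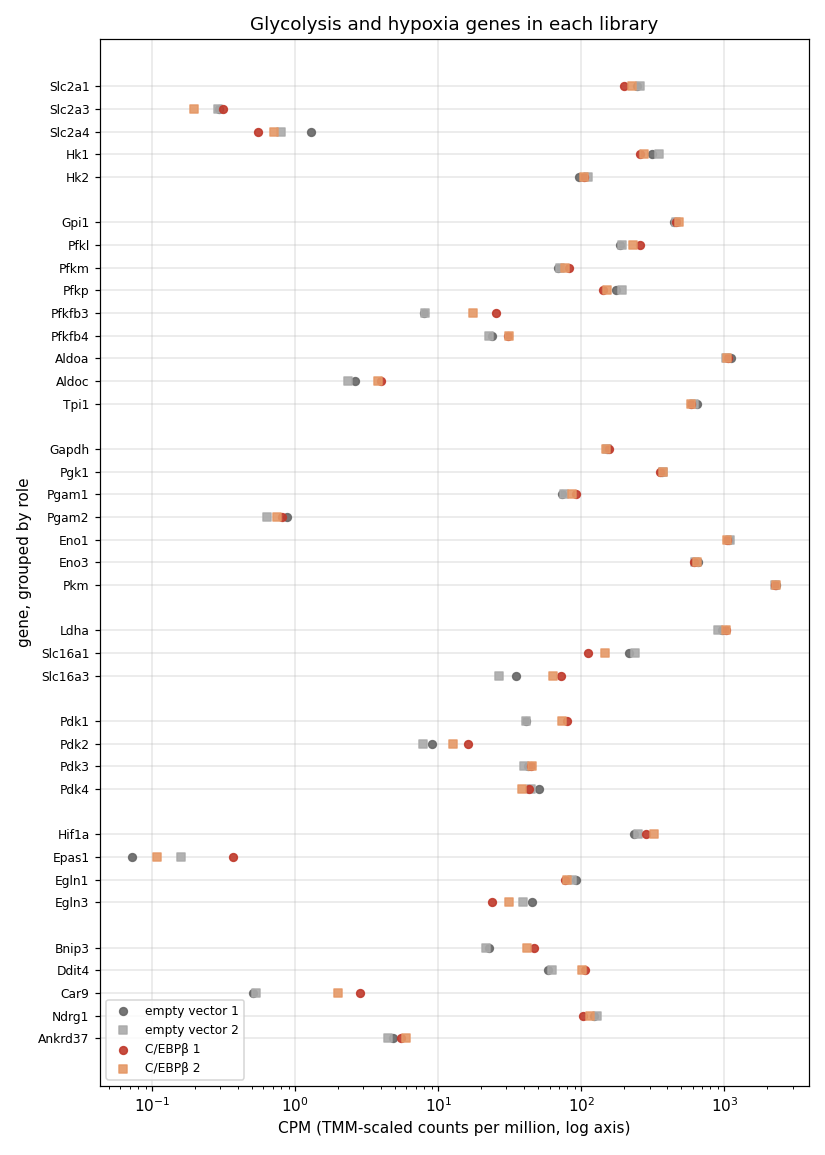
Level of each of the 37 genes in each of the 4 libraries, in CPM on a log axis, with genes grouped by role. Levels run from 0.0729 CPM for Epas1 in empty vector replicate 1 to 2309 CPM for Pkm in C/EBPβ replicate 2. Red and orange (C/EBPβ) and grey (empty vector) points separate for Pfkfb3, Slc16a1, Slc16a3, Pdk1, Bnip3, Ddit4 and Car9 and lie together for Pkm, Eno3, Pgk1 and Gapdh.

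Totals were 40912955 and 37566321 counts in the empty vector libraries against 38656497 and 92027838 in the C/EBPβ libraries. Levels are given as CPM, that is counts relative to a library size corrected by edgeR's TMM factor, and 1 count was worth 0.0109 to 0.0266 CPM. Cebpb stood at 85.0 and 76.8 CPM with the empty vector and at 483 and 473 CPM with C/EBPβ (log2 fold change 2.56, SE 0.09, adjusted p = 3.03e-06). Reads of the vector-borne copy that map to the gene are part of that value. Of 16 tested markers of muscle differentiation 15 were lower with C/EBPβ, although the intermediate filament gene Des, chosen after its values were seen, was still abundant, at 1296 and 1335 CPM against 855 and 919 CPM. Among them Myog, the factor that starts terminal differentiation, stood at 61.0 and 51.4 CPM against 5.32 and 10.9 CPM (log2 fold change -2.75, adjusted p = 2.39e-04). The skeletal actin gene Acta1 stood at 45.7 and 41.5 CPM against 11 and 12.8 CPM (log2 fold change -1.87). Summed markers of leukocytes came to 21.2 and 19.1 CPM against 37.0 and 38.5 CPM, and 3 of the 8 listed (Tyrobp, Adgre1 and Itgam) had 0 counts everywhere. Of the 4 leukocyte markers tested 3 rose: Lyz2, from 0.146 and 0.0529 to 7.5 and 4.88 CPM, Csf1r and Cd14. Summed markers of fibroblasts came to 142 and 118 CPM against 963 and 562 CPM, and 4 of 5 tested rose. Markers of bone and cartilage summed to 103 and 105 CPM against 330 and 162 CPM, with 2 of 4 tested called in opposite directions. Among them Alpl rose, from 0.146 and 0.0529 to 283 and 105 CPM, and Sox9 fell, from 102 and 104 to 44.8 and 55.5 CPM. Adipocyte markers summed to 25.7 and 21.9 against 33.6 and 27.6 CPM, most of it Pparg (25.5 and 21.8 against 23.6 and 22.1 CPM), which did not pass. The other tested adipocyte marker, Fabp4, rose from 0.243 and 0.106 to 9.38 and 5.31 CPM (adjusted p = 9.63e-05), and Plin1 had 0 and 0 counts against 19 and 17. Lep had 0 counts in every library and Adipoq at most 1. These markers were named after their values were seen. Endothelial markers summed to at most 0.588 CPM in every library. The 6 markers of proliferating cells, such as Mki67, had log2 fold changes from -0.26 to 0.24. Those marker levels that differed did so between the same groups that are compared below, and their part in the results was not tested. In RNA from whole cultures, fewer cells of a kind and less RNA per cell cannot be told apart.

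The promoter windows of 5 genes are printed because these genes carry the contrast between members that rose, fell and stayed uncalled: Bnip3, Car9 and Slc16a3 rose, Slc16a1 fell and Ldha did not pass. Each runs from 250 bases before to 50 bases after a RefSeq transcription start on GRCm38.p6, 5′ to 3′ on the gene's own strand, and for Ldha it is the first of 2 windows. Capitals mark the core of the hypoxia response element, searched as ACGTG or GCGTG on both strands. A CACGTG holds the core once on each strand and counts as 2 matches.
Bnip3 (chr7:138909457-138909756, minus strand): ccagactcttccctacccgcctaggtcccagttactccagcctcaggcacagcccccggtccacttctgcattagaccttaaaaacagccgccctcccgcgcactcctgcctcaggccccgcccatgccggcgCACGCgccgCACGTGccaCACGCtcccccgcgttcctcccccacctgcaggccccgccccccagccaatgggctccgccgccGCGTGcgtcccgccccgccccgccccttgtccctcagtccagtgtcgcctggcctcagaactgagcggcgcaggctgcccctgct
Car9 (chr4:43506776-43507075, plus strand): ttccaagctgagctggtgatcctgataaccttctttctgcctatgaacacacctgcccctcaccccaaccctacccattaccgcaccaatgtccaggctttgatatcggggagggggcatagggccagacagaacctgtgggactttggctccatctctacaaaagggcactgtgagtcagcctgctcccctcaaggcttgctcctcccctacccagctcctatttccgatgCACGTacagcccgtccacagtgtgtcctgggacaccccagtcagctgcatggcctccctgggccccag
Slc16a3 (chr11:120948817-120949116, plus strand): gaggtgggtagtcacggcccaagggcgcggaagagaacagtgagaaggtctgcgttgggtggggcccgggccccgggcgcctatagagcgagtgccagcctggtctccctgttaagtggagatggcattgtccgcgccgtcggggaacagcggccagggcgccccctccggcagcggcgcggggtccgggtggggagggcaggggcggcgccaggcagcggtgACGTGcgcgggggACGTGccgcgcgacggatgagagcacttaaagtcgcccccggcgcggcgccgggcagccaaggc
Slc16a1 (chr3:104638414-104638713, plus strand): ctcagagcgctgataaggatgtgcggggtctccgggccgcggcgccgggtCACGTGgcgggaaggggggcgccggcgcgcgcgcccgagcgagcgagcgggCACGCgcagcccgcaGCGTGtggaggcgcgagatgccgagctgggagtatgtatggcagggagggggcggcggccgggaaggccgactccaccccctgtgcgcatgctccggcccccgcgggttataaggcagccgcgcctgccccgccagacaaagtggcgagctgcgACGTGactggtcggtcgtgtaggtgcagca
Ldha (chr7:46845554-46845853, plus strand): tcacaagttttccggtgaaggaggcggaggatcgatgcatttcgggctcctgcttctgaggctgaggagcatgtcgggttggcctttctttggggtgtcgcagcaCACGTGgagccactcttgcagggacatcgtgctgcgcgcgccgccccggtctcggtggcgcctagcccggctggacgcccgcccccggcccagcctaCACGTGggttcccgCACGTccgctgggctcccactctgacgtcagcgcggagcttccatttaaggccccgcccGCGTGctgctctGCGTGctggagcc
In these windows the core was found 5 times in Bnip3, once in Car9, with its first base 18 bases upstream of the start, and 2 times in Slc16a3, at 27 and 14 bases upstream. It was found 5 times in Slc16a1, which fell, and 7 times in Ldha, which did not pass. Windows were matched for 33 of the 37 genes, and 30 of these (90.9%) held the core in at least 1 window, beside 46.7% of all 27018 genes in the table. Those 27018 were not limited to genes tested here, and windows numbered 47 for the 33 genes and 32841 for the 27018. The core was present in 12 of 12 matched genes that rose, 4 of 4 that fell and 14 of 17 that did not pass. Member windows had a median GC content of 62.3% and a median of 20 CG pairs, against 52.7% and 7 over all windows, and both forms of the core contain a CG pair. The C/EBP motif TTGCNNAA, searched on both strands, was in a window of 2 of the 33 genes (Pfkm and Pkm, neither called), or 6.06%, beside 12.2% of all genes. A match of letters is a description and not a binding site.

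Of 5 genes of glucose uptake and phosphorylation, 1 fell in messenger RNA level and 4 did not pass. That was 20% called, beside 24.9% of all tested genes. Slc2a1, the basal glucose transporter, was the most abundant transporter of the list, at 244 and 257 CPM with the empty vector and 199 and 225 CPM with C/EBPβ. Both C/EBPβ libraries were below both controls, but the difference did not pass (log2 fold change -0.24, SE 0.09, adjusted p = 0.100). Slc2a4, the insulin-responsive transporter of muscle and fat, stood at 1.29 and 0.793 against 0.550 and 0.707 CPM (adjusted p = 0.153). Slc2a3, a high-affinity transporter, rested on 11 to 18 counts per library, and its groups overlapped. Hk1, the widely expressed hexokinase, stood at 313 and 351 CPM against 258 and 275 CPM, a fall of small size (log2 fold change -0.31, SE 0.09, adjusted p = 0.0422). Hk1 did not pass without empty vector replicate 2 (adjusted p = 0.114), without C/EBPβ replicate 1 (0.261), without C/EBPβ replicate 2 (0.0657) and with a stricter filter of 5 CPM in 2 libraries (0.0516). Hk2, the hypoxia- and insulin-responsive hexokinase, stood at 95.7 and 111 CPM against 105 and 104 CPM, and its groups overlapped.

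Upper glycolysis held most of the calls among the enzymes, 4 rises and 1 fall in 9 genes. These were 44.4% and 11.1% of the 9, beside 14.1% and 10.8% over all tested genes. Pfkfb3 (ENSMUSG00000026773, chromosome 2, 11471433 to 11554077, minus strand of GRCm38, protein-coding) encodes a bifunctional enzyme whose product, fructose 2,6-bisphosphate, activates phosphofructokinase. It stood at 7.90 and 8.09 CPM with the empty vector and at 25.2 and 17.5 CPM with C/EBPβ. Both C/EBPβ libraries were more than the spread of the controls above them, and replicate 1 was higher than replicate 2 (log2 fold change 1.41, SE 0.18, adjusted p = 7.48e-04). Pfkfb4, its paralog, rose less, from 23.7 and 22.5 CPM to 31.0 and 31.3 CPM (log2 fold change 0.43, SE 0.09, adjusted p = 0.0116). The 3 genes of phosphofructokinase itself, the committed step, did not move together. Pfkl, the liver-type subunit, stood at 187 and 194 CPM against 258 and 229 CPM and rose (log2 fold change 0.35, adjusted p = 0.0239). Pfkp, the platelet-type subunit, stood at 174 and 194 CPM against 141 and 151 CPM and fell (log2 fold change -0.34, adjusted p = 0.0278). Pfkm, the muscle-type subunit, stood at 69.0 and 71.0 CPM against 81.5 and 76.5 CPM and did not pass (log2 fold change 0.17, adjusted p = 0.158). Neither call was robust to every library. Pfkl did not pass without empty vector replicate 1 (adjusted p = 0.0748) or C/EBPβ replicate 1 (0.263), and Pfkp without empty vector replicate 2 (0.0759) or C/EBPβ replicate 1 (0.214).

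The remaining upper enzymes were abundant and near their control level, apart from a minor aldolase. Aldoa, the main aldolase of muscle, stood at 1109 and 1026 CPM against 1059 and 1051 CPM, and its groups overlapped (log2 fold change -0.02, SE 0.10). Gpi1, glucose-6-phosphate isomerase, stood at 447 and 458 CPM against 459 and 482 CPM (0.06, SE 0.09). Tpi1, triosephosphate isomerase, stood at 648 and 616 CPM against 585 and 583 CPM (-0.11, SE 0.09), which did not pass either. Aldoc, the brain-type aldolase, was 2.60 and 2.33 CPM against 3.96 and 3.77 CPM (log2 fold change 0.64, SE 0.18, adjusted p = 0.0301). That rise rested on 88 to 346 counts per library. The Aldoc call was lost with any 1 library left out (adjusted p = 0.0572 to 0.107) and in DESeq2 (0.0683).

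In lower glycolysis 1 of 7 genes passed, or 14.3%, beside 24.9% of all tested genes. The 6 others had log2 fold changes between -0.07 and 0.03. Pkm, pyruvate kinase of muscle and growing cells, was the most abundant of the 37 in CPM, at 2292 and 2243 against 2255 and 2309. Eno1, the widely expressed enolase, stood at 1083 and 1088 against 1038 and 1037 CPM. Eno3, the muscle enolase, stood at 658 and 620 against 612 and 649 CPM. Pkm and Eno3 overlapped between groups, and Eno1 was lower in both C/EBPβ libraries by less than the test could separate (log2 fold change -0.07, SE 0.10). Pgk1, phosphoglycerate kinase, stood at 366 and 372 against 358 and 371 CPM. Pgam1, the widely expressed phosphoglycerate mutase, stood at 73.9 and 75.8 against 92.0 and 86.7 CPM (log2 fold change 0.25, SE 0.08, adjusted p = 0.0493). That call sat at the threshold and was lost with any 1 library left out (adjusted p = 0.0603 to 0.427), with library totals in place of TMM (0.0657), in DESeq2 (0.0523), in limma-voom (0.0522) and with no low-count filter (0.0568). Pgam2, the muscle mutase, had 24 to 69 counts per library and overlapped between groups.

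Gapdh, often used as a reference gene, stood at 152 and 152 against 157 and 148 CPM. Its level here is uncertain, because reads that map to several places were not counted. Among annotated transcripts 90 pseudogenes matched Gapdh over at least 150 bases at 95% identity or more. Those 90 pseudogenes held 258 and 249 CPM with the empty vector and 238 and 246 CPM with C/EBPβ, or 60.3% to 63.0% of the counts of Gapdh and its pseudogenes together. For Eno1 the share in 3 such pseudogenes was 7.09% to 7.41%, and for Ldha in 5 it was 3.11% to 3.51%. Such pseudogenes were found for 10 of the 37 genes, and 25 had no other gene this alike. Part of the exon length of Pkm, 15.3%, is shared with another gene on its strand, Gm49759, and reads there were not counted for either.

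**Figure D2:**
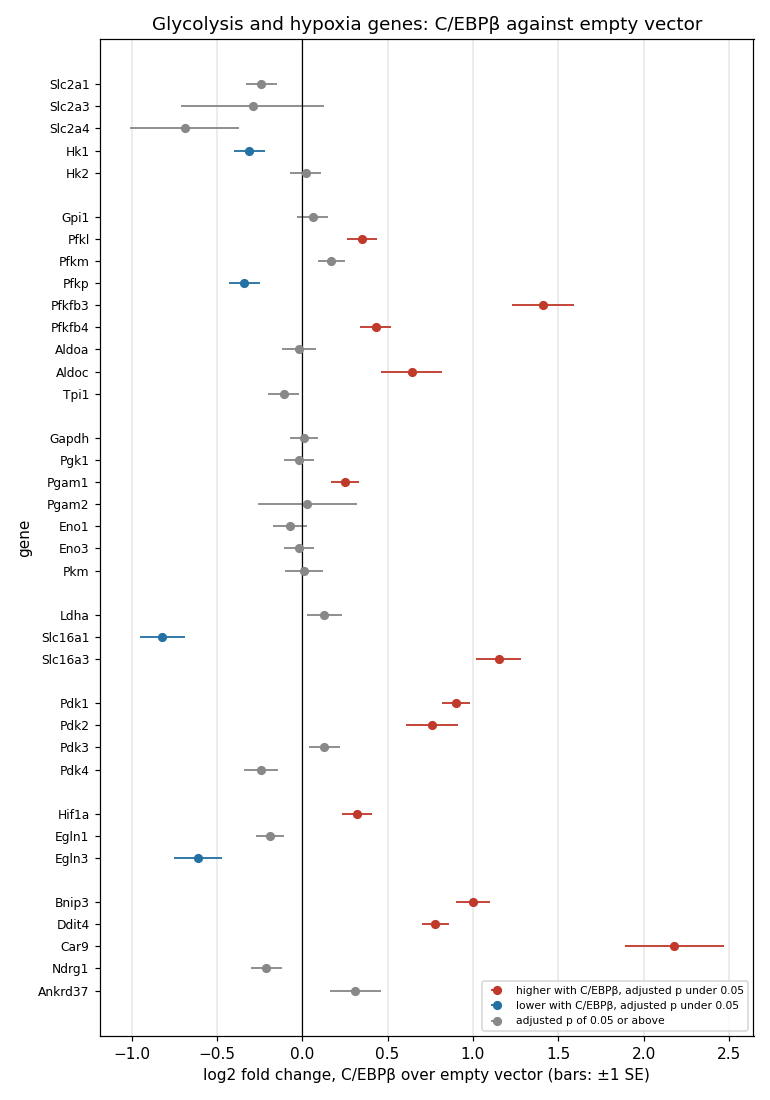
Log2 fold change of the 36 tested genes, C/EBPβ over empty vector, with bars of 1 SE and genes in the order of their roles. Red marks the 12 genes higher and blue the 4 lower at an adjusted p under 0.05. The lower glycolysis genes sit near 0 apart from Pgam1 at 0.25, while Pfkfb3, Slc16a3, Pdk1, Pdk2, Bnip3, Ddit4 and Car9 lie at 0.76 to 2.18 and Slc16a1 at -0.82.

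The genes of lactate formation and of lactate transport gave different pictures. Ldha, which turns pyruvate to lactate, stood at 964 and 907 CPM against 1026 and 1027 CPM. Both C/EBPβ libraries were higher, but the difference did not pass (log2 fold change 0.13, SE 0.10, adjusted p = 0.362). Slc16a3 (ENSMUSG00000025161, chromosome 11, 120948480 to 120960868, plus strand of GRCm38, protein-coding) encodes MCT4, the lactate exporter of highly glycolytic cells. It stood at 34.7 and 26.4 CPM with the empty vector and 72.2 and 63.4 CPM with C/EBPβ. Both C/EBPβ libraries were well above both controls (log2 fold change 1.15, SE 0.13, adjusted p = 5.36e-04). Slc16a1 (ENSMUSG00000032902, chromosome 3, 104638668 to 104658462, plus strand, protein-coding) encodes MCT1, which carries lactate in either direction. It went the other way, from 216 and 238 CPM to 111 and 146 CPM (log2 fold change -0.82, SE 0.13, adjusted p = 0.00245). Per kilobase of exon, Slc16a3 made up 11.8% and 8.44% of the sum of both carriers in the controls and 35.1% and 26.6% with C/EBPβ, a difference of 20.7 percentage points. The sum itself was 55.4 and 58.7 CPM per kilobase against 38.7 and 44.9, so the carrier transcripts were less abundant together and more evenly shared.

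The 4 pyruvate dehydrogenase kinases were also split, with 2 rises and 2 genes that did not pass. The rises were 50% of the 4, beside 14.1% over all tested genes. Pdk1 (ENSMUSG00000006494, chromosome 2, 71873224 to 71903858, plus strand, protein-coding) is the hypoxia-inducible kinase of the family. It stood at 41.1 and 41.0 CPM against 79.8 and 73.6 CPM, with little spread in either group (log2 fold change 0.90, SE 0.08, adjusted p = 1.96e-04). Pdk2, the broadly expressed kinase, rose from 9.04 and 7.85 CPM to 16.2 and 12.7 CPM (0.76, SE 0.15, adjusted p = 0.00810). Pdk3 stood at 42.6 and 39.9 against 44.6 and 45.6 CPM (0.13, adjusted p = 0.314). Pdk4, the kinase induced by fasting and fatty acids, stood at 50.7 and 44.8 against 42.8 and 38.3 CPM, lower in both C/EBPβ libraries without passing (-0.24, adjusted p = 0.126). Per kilobase, Pdk1 went from 13.5% and 14.6% of the 4 kinases to 22.8% and 22.4%, and Pdk4 from 36.8% and 35.3% to 27.1% and 25.9%. Per kilobase Pdk3 was the largest share in every library, at 38.7% to 43.2%. In CPM Pdk4 was the highest of the 4 in both controls and Pdk1 in both C/EBPβ libraries. The exon lengths used were 7779 bases for Pdk1, 2561 for Pdk3 and 3511 for Pdk4. Without the correction for length the difference in the Pdk1 share was 13.7 points in place of 8.57.

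**Figure D3:**
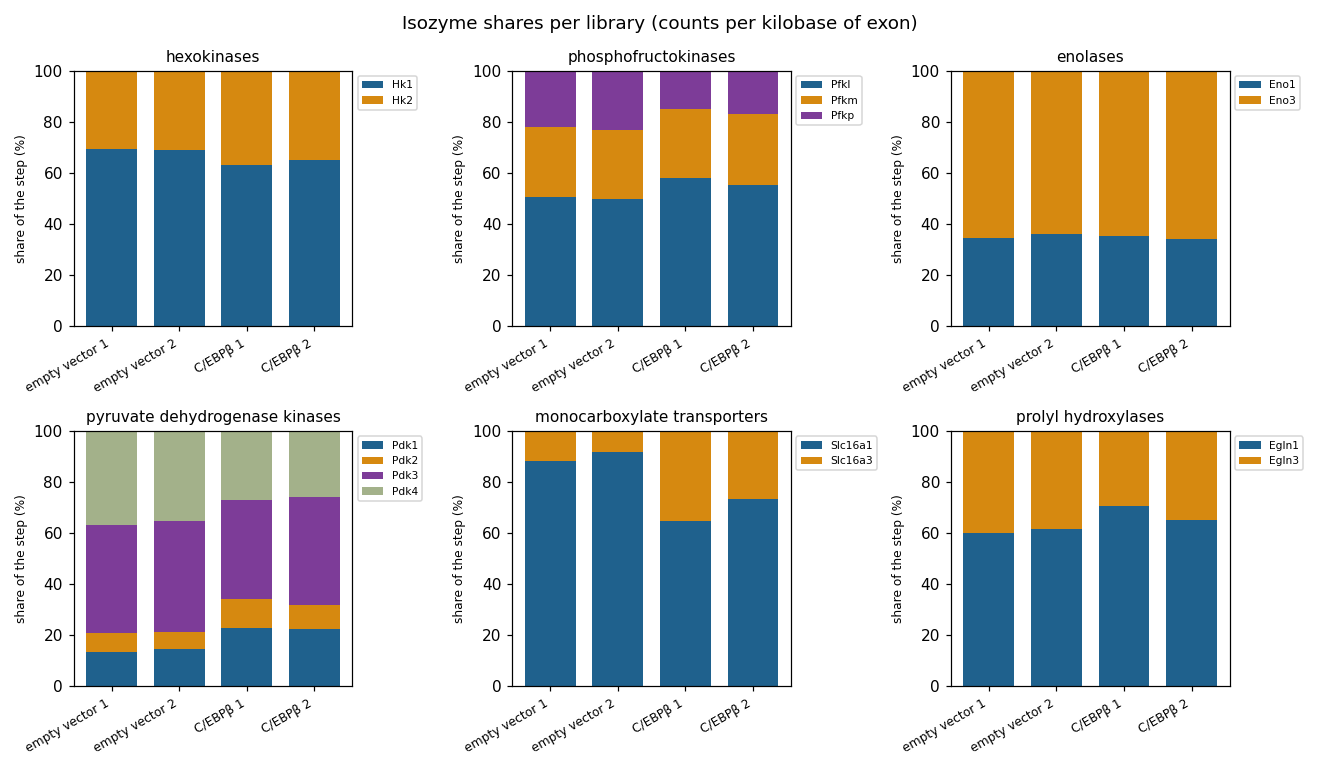
Share of each isozyme in its step, in each library, as a percent of the counts per kilobase of exon summed over the isozymes shown. The Slc16a3 share of the monocarboxylate transporters is 11.8% and 8.44% in the empty vector libraries and 35.1% and 26.6% with C/EBPβ, while Eno3 keeps 63.8% to 65.9% of the enolases.

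Levels per length set isozymes beside each other, but they depend on the exon length given to each gene. Eno3 held 64.5% ± 1.05 of the enolases in the controls and 65.3% ± 0.943 with C/EBPβ (SD, n = 2), a difference smaller than the spread. Per kilobase the muscle enolase thus exceeded Eno1 in both groups. In CPM the order was the reverse, with Eno1 at 1083 and 1088 and Eno3 at 658 and 620 in the controls. The exon lengths used were 5379 bases for Eno1 and 1739 for Eno3, so the order rests on the correction for length. Hk1 held 69.2% ± 0.497 of both hexokinases in the controls and 64.1% ± 1.34 with C/EBPβ. Pfkl took 50.1% ± 0.460 and 56.7% ± 1.81 of the phosphofructokinases, Pfkp 22.6% ± 0.899 and 15.9% ± 1.63, and Pfkm 27.3% ± 0.439 and 27.4% ± 0.183. For Hk1, Pfkl and Pfkp the 2 groups did not overlap. Without the correction for length the difference in the Pfkp share was -10.2 points in place of -6.65. Slc2a1 held at least 99.4% of the sum of Slc2a1, Slc2a3 and Slc2a4, other family members such as Slc2a8 not being counted in it, Aldoa at least 99.6% of the aldolases and Pgam1 at least 97.5% of the mutases in every library. With 2 libraries a group an exact two-sided permutation test cannot give a p below 0.333, so these shares are described without a test. The most abundant genes per kilobase in the controls were Pkm (453 CPM per kilobase), Eno3 (367), Aldoa (284), Ldha (283), Tpi1 (230) and Eno1 (202).

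The oxygen-sensing genes moved little, apart from Egln3. Hif1a (ENSMUSG00000021109, chromosome 12, 73901375 to 73947530, plus strand, protein-coding) encodes the oxygen-regulated subunit of HIF-1, which is controlled mainly as a protein. It stood at 234 and 251 CPM against 285 and 320 CPM (log2 fold change 0.32, SE 0.09, adjusted p = 0.0416). Leaving out empty vector replicate 1 (adjusted p = 0.128), empty vector replicate 2 (0.0551) or C/EBPβ replicate 2 (0.293) ended this call, and so did a fit with library totals in place of TMM (0.0592). Epas1, the HIF-2 alpha subunit, had 3 and 6 counts against 14 and 10 and was not tested. Egln1, the main oxygen sensor of the hydroxylases, stood at 91.7 and 85.7 against 77.0 and 79.0 CPM (-0.19, adjusted p = 0.133). Egln3 (ENSMUSG00000035105, chromosome 12, 54178981 to 54203860, minus strand, protein-coding) stood at 45.2 and 39.2 CPM against 23.6 and 31.5 CPM. Its groups did not overlap, and the fall was smaller in C/EBPβ replicate 2 than in replicate 1 (log2 fold change -0.61, SE 0.14, adjusted p = 0.0160). Egln3 no longer passed without empty vector replicate 1 (-0.50 on the log2 scale, adjusted p = 0.0898).

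Among the 5 hypoxia-inducible target genes 3 rose and 2 did not pass. The rises were 60% of the 5, beside 14.1% over all tested genes. Bnip3 (ENSMUSG00000078566, chromosome 7, 138890836 to 138909519, minus strand, protein-coding), a mitochondrial protein that promotes mitophagy, stood at 22.7 and 21.6 CPM against 46.7 and 41.9 CPM (log2 fold change 1.0, SE 0.10, adjusted p = 2.59e-04). Ddit4, which encodes REDD1, an inhibitor of mTORC1 signalling, stood at 58.8 and 62.8 CPM against 107 and 102 CPM (0.78, SE 0.08, adjusted p = 3.40e-04). Both genes were about evenly raised in the 2 C/EBPβ libraries. Car9 (ENSMUSG00000028463, chromosome 4, 43506966 to 43513729, plus strand, protein-coding), a carbonic anhydrase of the cell surface that handles acid, had the largest fold change of the 36 from a low level. It stood at 0.511 and 0.529 CPM against 2.83 and 1.99 CPM, or 21 and 20 counts against 108 and 183 (log2 fold change 2.18, SE 0.29, adjusted p = 9.46e-04). Ndrg1, a stress-responsive gene much induced by hypoxia, stood at 123 and 128 CPM against 103 and 115 CPM and did not pass (-0.21, adjusted p = 0.122). Ankrd37, an ankyrin-repeat gene used as a hypoxia marker, stood at 4.81 and 4.47 against 5.53 and 5.98 CPM (0.31, adjusted p = 0.171).

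The authors' deposited table holds all 37 genes and calls 11 higher and 7 lower at its adjusted p under 0.05, with the same call as here for 32 of the 36 tested. The share called over all 18378 genes of that table was not computed, so these counts have no background beside them. In the authors' deposited table Slc2a1 (log2 fold change -0.28), Pdk4 (-0.28) and Ndrg1 (-0.25) are also lower, with adjusted p = 0.0102, 0.0248 and 0.0234. Pgam1 does not pass in the authors' deposited table (log2 fold change 0.21, adjusted p = 0.123).

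Other genes of the pathway were read from lists of symbols, which like the 37 were drawn up with earlier results of these data known. In 36 other hypoxia-inducible genes 35 were abundant enough to test: 16 rose, 4 fell and 15 did not pass, with a median log2 fold change of 0.27. The rises were 45.7% and the falls 11.4% of the 35, beside 14.1% and 10.8% over all tested genes. The 3 strongest rises by adjusted p were Tmem45a, a transmembrane protein gene (17.0 and 13.4 against 94.1 and 93.1 CPM, log2 fold change 2.62), Rora, a nuclear receptor gene (2.71), and Lox, the collagen cross-linking enzyme lysyl oxidase (2.0, adjusted p = 4.49e-05). Vegfa, the angiogenic growth factor, named after its value was seen, stood at 197 and 192 against 352 and 309 CPM (0.77, SE 0.09, adjusted p = 6.98e-04). Several of the genes that rose also serve the collagen matrix, such as Lox and the collagen hydroxylase genes P4ha1 and Plod2 (0.76 and 1.0), which were also named after their values were seen. The falls by adjusted p were led by Stc2, a secreted stanniocalcin (20.7 and 19.7 against 4.56 and 6.35 CPM, -1.87), Ppfia4, a liprin (-1.43), and Angptl4, an inhibitor of lipoprotein lipase (-0.50). Without C/EBPβ replicate 1 the falls in this list numbered 2, and Angptl4 was no longer called (adjusted p = 0.0799). Among 8 tested partners and regulators of HIF, 2 passed, or 25%, and both rose. Over all tested genes 24.9% passed, 14.1% of them all being higher. The 2 were Cited2, which competes with HIF for its coactivator (0.41, adjusted p = 0.0237), and Arnt2, a dimer partner (0.58, adjusted p = 0.0244). Without empty vector replicate 2 both were lost (adjusted p = 0.0906 and 0.0839), and Cited2 also without C/EBPβ replicate 1 (0.124).

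**Figure D4:**
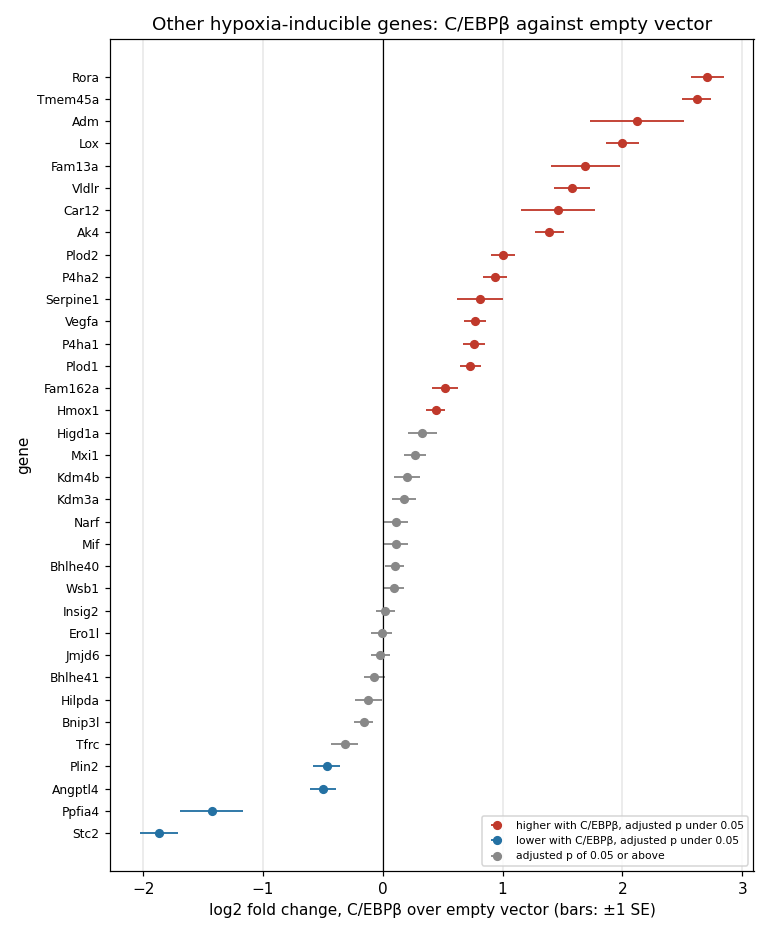
Log2 fold change of the 35 tested genes of the other hypoxia-inducible list, C/EBPβ over empty vector, with bars of 1 SE, sorted by value. The 16 genes in red rose and the 4 in blue fell, from Rora at 2.71 to Stc2 at -1.87, and 15 genes in grey did not pass.

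The list of other glycolysis genes gave 4 rises and 1 fall in 14 tested of 20. These were 28.6% and 7.14% of the 14, beside 14.1% and 10.8% over all tested genes. The rises were led by Slc2a10, a glucose transporter family member (0.900 and 0.846 against 3.59 and 2.98 CPM, log2 fold change 1.90), Ldhb, the lactate dehydrogenase subunit of oxidative tissue (0.89, adjusted p = 0.00180), and Adpgk, an ADP-dependent glucokinase (0.37, adjusted p = 0.00943). Tigar, a fructose 2,6-bisphosphatase that acts against the Pfkfb3 product, fell (-0.49, adjusted p = 0.0109). Without C/EBPβ replicate 1 this list gave 2 rises, and Adpgk (adjusted p = 0.0847) and Tigar (0.0698) were lost. With no low-count filter it gave 7 rises.

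Glycogen and gluconeogenesis genes gave 8 rises and 1 fall in 14 tested of 18, with a median log2 fold change of 0.31. These calls were 57.1% and 7.14% of the 14, beside 14.1% and 10.8% over all tested genes. Gys1, muscle glycogen synthase, stood at 54.8 and 58.9 against 96.7 and 89.4 CPM (0.71, SE 0.09, adjusted p = 6.39e-04). Ugp2, which makes the UDP-glucose used by the synthase, rose by 0.61, and Phkb, a subunit of the kinase that triggers glycogen breakdown, by 0.73 on the log2 scale. Gyg, the glycogenin primer of glycogen, fell (-0.35, adjusted p = 0.0321), a call lost without empty vector replicate 1 (0.118) or C/EBPβ replicate 1 (0.235).

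At the mitochondrial entry of pyruvate 2 of 10 genes passed, or 20%, beside 24.9% of all tested genes. Pdp1, the phosphatase that reverses the action of the Pdk kinases, stood at 29.6 and 33.5 against 23.7 and 24.0 CPM (-0.40, adjusted p = 0.0213). Pdp1 did not pass without empty vector replicate 2 (0.0688), C/EBPβ replicate 1 (0.0713) or C/EBPβ replicate 2 (0.0538). Pdha1, the target subunit of those kinases, had a log2 fold change of 0.27 at the threshold (adjusted p = 0.0499), lost with any 1 library left out (0.0811 to 0.269) and with library totals in place of TMM (0.0729). In the pentose phosphate pathway, which branches off glucose 6-phosphate, 1 of 7 genes passed, or 14.3%, beside the same 24.9%. That gene was Tkt, transketolase (0.35, adjusted p = 0.0142), lost without C/EBPβ replicate 1 (adjusted p = 0.137).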

How the data were processed

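The 37 genes and the other lists were chosen with earlier results of these data known. Messenger RNA of 4 libraries was read as deposited. Per the file headers, each library's counts are unnormalized, come from featureCounts 1.5.1 (paired-end, reverse-stranded, GENCODE M12), and leave out fragments that map to several places or genes. HISAT2 2.0.4, featureCounts 1.4.6, DESeq2 and the build GRCm38 are named in the submitters' processing notes. The 2 statements of the featureCounts version differ. The authors' deposited table holds a log2 fold change with its SE, p-values, a mean signal and a test score for each gene, and does not name its libraries.

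Genes were filtered with filterByExpr of edgeR 4.0.16 (minimum count 10, minimum total 15), which left 15078, scaled by TMM, and compared with the quasi-likelihood test (prior count 0.125) in R 4.3.3 with no covariate, calls being made at an adjusted p under 0.05. SE is the log2 fold change divided by the square root of the test's F. The fit was tested on simulated data. Levels per length divide CPM by the exon length in kilobases of the count files. Pseudogenes were found with blastn against GENCODE M21 transcripts. Replicates of a group differed beyond counting noise (chi-square per degree of freedom 22.8 and 25.1), so none was merged as a library deposited a second time; this does not show that they are separate cultures. All 37 genes are named, and from each other list up to 3 called genes per direction with the smallest adjusted p and a mean of at least 1 CPM, and Myog, Acta1 and Cebpb. Alternatives were DESeq2 1.42.0, limma-voom (limma 3.58.1), library totals, other filters, a replicate block, a 1.5-fold test and each library left out.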

Additional observations from a re-analysis of the deposited data

How the results depend on the processing

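Calls of the 37 genes moved most when a change beyond 1.5-fold was asked for (edgeR glmTreat). Then 1259 genes passed, or 8.35% of all tested, 808 higher and 451 lower. Of the 36 tested members 5 were higher and 0 lower (1 lower at an unadjusted p under 0.05). With 1 library left out, members called higher numbered 8 to 9 and members called lower 2 to 3, against 12 and 4, and calls over all genes 2493 (without C/EBPβ replicate 1) to 3462, against 3759. DESeq2 called 10 members higher and 4 lower, beside 1984 and 1566 of all tested genes (23.5% called). For limma-voom these were 11 and 4, beside 2110 and 1641 (24.9% called). The Slc16a3 share differed by 16.5 to 25 points with 1 library left out.

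The replicate numbers are shared by both groups, but the labels do not say that a number marks a shared culture or day. Replicate differences of the groups correlated at 0.18 across genes. With the replicate block 4536 genes were called, or 30.1% of all tested, 2573 higher and 1963 lower, with 12 members higher and 4 lower.

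Of the 20 members that did not pass, 8 changed sign in some setting without being called. With library totals Hk2, Gapdh and Pkm had log2 fold changes of -0.00, -0.01 and -0.01. With 1 library left out the ranges were -0.57 to 0.11 for Slc2a3, -0.09 to 0.12 for Hk2, -0.07 to 0.04 for Aldoa, -0.03 to 0.05 for Gapdh, -0.04 to 0.01 for Pgk1, -0.18 to 0.29 for Pgam2, -0.06 to 0.02 for Eno3 and -0.01 to 0.03 for Pkm. The cause was not tested. Counts were low for Slc2a3, Slc2a4, Pgam2 and Epas1, at 3 to 69 per library.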
